A study of Rattus norvegicus with 18 samples.

Results

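A group of 10 genes, most of them best known from nerve, epithelium, muscle or liver, was followed through RNA-seq libraries of Rat1 fibroblasts: Nts, Tspan8, Pvalb, Nfasc, Kif26a, Matn4, A2m, A1cf, Atcay and Lrrc16b. They are 10 of the 13188 genes in the expression table, and they were picked on their values in these same libraries, for very large changes with MYC or with both siRNAs against AHR. No numerical threshold went with that choice. Their changes with MYC and with each siRNA against the control siRNA are therefore given as a description, with a standard error (SE) and no p-value. Where members are counted past the study's cutoffs, which include an adjusted p, the counts are a description too and serve as no test.

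All 18 libraries came from 1 cell line, HO15.19, a rat fibroblast line in which both copies of Myc are disrupted (myc-/-), so that every group shares that loss. The 6 groups had 3 libraries each. The set of 6 held myc-/- siCtrl (the line with a control siRNA) and myc-/- + MYC (a stable derivative with human MYC, not transfected). The set of 12 held myc-/- (not transfected) and 3 transfected groups of the MYC line, myc-/- + MYC siCtrl, then siAHR-2 and siAHR-5, which are separate siRNAs against Ahr. The siRNAs were used at 40 nM and the transfected cells were harvested 48 h later. MYC was delivered by viral infection, and the study's results describe a retroviral promoter driving its expression rather than the Myc gene's own. In each MYC comparison the transfection changed together with MYC, in opposite senses in the 2 sets, so their effects cannot be told apart. Nothing in the labels says that the libraries of a group came from separate cultures, so the errors and p-values measure the spread between these samples, which may be technical.

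MYC is a basic helix-loop-helix transcription factor that pairs with MAX and binds E-box sequences, and in proliferating cells it raises and lowers the expression of many genes. AHR is a ligand-activated transcription factor of the bHLH-PAS family that pairs with ARNT and binds xenobiotic response elements (XRE). The 10 genes belong to no common pathway. Nts encodes the precursor of the peptides neurotensin and neuromedin N, which are made in brain and in endocrine cells of the small intestine. Tspan8 is a tetraspanin of epithelial membranes. Pvalb encodes parvalbumin, an EF-hand calcium buffer of fast muscle fibres and of a class of inhibitory neurons. Nfasc (neurofascin) is an adhesion molecule of the L1 family at axon initial segments and nodes of Ranvier. Kif26a is an atypical kinesin. Matn4 is a matrilin, an adaptor protein of the extracellular matrix. A2m (alpha-2-macroglobulin) is a broad protease inhibitor that rat liver secretes. A1cf is an RNA-binding partner of APOBEC1, the enzyme that edits apolipoprotein B mRNA. Atcay encodes caytaxin, a BCH-domain protein of brain, and Lrrc16b (now Carmil3) encodes a regulator of actin capping protein.

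The deposited values are on a log2 scale, and below a level is such a value and a difference between levels is a log2 fold change (log2FC). The table calls them log CPM, but unlogged they add up to 86.3 to 161 times what CPM would, with smaller sums for the set of 6, so levels were compared within a set only and read depth is unknown. Rat Myc lay between 9.16 and 9.47 in myc-/- siCtrl and between 8.01 and 8.08 in myc-/- + MYC, and between 10.8 and 10.9 in myc-/- against 8.16 to 8.27 in myc-/- + MYC siCtrl. The labels do not say which part of Myc was deleted, so these values check neither the deletion nor the labels. Ahr fell from between 13.2 and 13.3 with siCtrl to between 11.97 and 12.03 with siAHR-2 (log2FC -1.29, SE 0.0364, limma adjusted p = 0.000237) and to between 11.76 and 11.95 with siAHR-5 (log2FC -1.39, SE 0.0612, adjusted p = 0.000216). In bulk RNA, fewer cells that express a gene and less RNA of that gene per cell cannot be told apart.

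Because MYC and AHR act through short DNA motifs, upstream sequences are shown for 4 genes: Nts and Tspan8, which were far higher with MYC, Pvalb, which was far lower in the set of 6, and Atcay, which was higher with both siRNAs. RefSeq promoter windows (assembly GRCr8) were found for 6 of the 10 genes, A1cf, Atcay, Nts, Tspan8, Pvalb and Nfasc. Below are the 250 bases before the start of Nts (chr7:39460889-39461138, minus strand), Tspan8 (chr7:53330937-53331186, plus strand), Pvalb (chr7:111666290-111666539, minus strand) and Atcay (chr7:9138235-9138484, plus strand), each written 5′ to 3′ on the gene's own strand. Capitals mark the letters GCGTG, the core of the XRE, and TGANTCA, the site of the AP-1 factors, in which N is any base.
Nts: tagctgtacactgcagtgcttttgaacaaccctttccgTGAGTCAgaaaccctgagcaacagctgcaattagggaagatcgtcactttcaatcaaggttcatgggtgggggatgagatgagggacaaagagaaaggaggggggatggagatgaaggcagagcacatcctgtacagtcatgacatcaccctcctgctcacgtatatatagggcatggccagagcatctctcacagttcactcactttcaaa
Tspan8: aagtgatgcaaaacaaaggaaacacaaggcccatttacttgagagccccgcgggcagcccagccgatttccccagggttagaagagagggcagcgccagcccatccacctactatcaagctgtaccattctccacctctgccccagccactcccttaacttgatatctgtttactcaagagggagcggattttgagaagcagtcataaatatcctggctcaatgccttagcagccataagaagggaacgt
Pvalb: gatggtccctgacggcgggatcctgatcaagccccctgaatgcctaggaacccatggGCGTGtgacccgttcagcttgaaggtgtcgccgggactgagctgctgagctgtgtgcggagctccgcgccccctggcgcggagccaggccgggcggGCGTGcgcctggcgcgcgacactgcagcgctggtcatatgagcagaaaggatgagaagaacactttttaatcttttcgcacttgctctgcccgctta
Atcay: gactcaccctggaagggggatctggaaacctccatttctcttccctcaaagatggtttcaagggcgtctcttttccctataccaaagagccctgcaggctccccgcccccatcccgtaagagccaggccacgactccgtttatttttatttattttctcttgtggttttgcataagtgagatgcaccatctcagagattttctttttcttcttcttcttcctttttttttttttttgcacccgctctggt

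Each motif was searched on both strands of the 250 upstream bases and of the 50 bases after the start. The E-box CACGTG was in none of the windows of the 6 genes; it occurs in 6.42% of all 33469 rat promoter windows of 300 bases. GCGTG was found in the Pvalb window only, where its copies begin at positions -193 and -97 from the start, and 29.7% of all windows hold it. TGANTCA was added after the sequences had been seen, and it was found in the Nts window only, beginning at position -212, against 7.33% of all windows. The 3 motifs share no complete copy with one another: an E-box and a GCGTG can overlap by their end letters only. The GC content of the upstream bases ran from 38.8% in A1cf to 62.8% in Pvalb, beside a median of 51.2% over all windows. A match is a run of letters and no measurement of binding.

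The first question was how far each gene moved between fibroblasts without and with MYC. In the set of 6, 5 of the 10 genes were higher with MYC and 4 lower past the study's cutoffs, a change of at least 1.5-fold (the fold cutoff) and an adjusted p of at most 0.01 in limma, and the set of 12 again had 5 and 4. Over all genes, 26.8% passed in the set of 6 (12.5% higher, 14.3% lower) and 25.5% in the set of 12 (10.8% higher, 14.7% lower); since the genes were chosen by these comparisons, nothing can be read from the members' larger share. Matn4 did not pass in the set of 6 and Pvalb did not pass in the set of 12.

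Nts, Tspan8, Lrrc16b and A1cf were higher with MYC in both sets. Nts stood at 7.53, 7.43 and 7.36 in the 3 myc-/- siCtrl libraries and at 12.80, 12.77 and 12.70 in myc-/- + MYC. It stood at 9.43, 9.43 and 9.44 in myc-/- and at 13.43, 13.54 and 13.55 in myc-/- + MYC siCtrl. Every MYC library lay well above every library without MYC, by a log2FC of 5.32 (SE 0.0581) in the set of 6, the largest rise of any gene there, and of 4.07 (SE 0.0430) in the set of 12. Tspan8, the epithelial tetraspanin, read 6.45, 6.65 and 6.81 without MYC and 11.60, 11.57 and 11.51 with MYC in the set of 6. Within the set of 12 it read 7.49, 7.52 and 7.54 without and 9.91, 9.85 and 9.94 with MYC. Its log2FC was 4.92 (SE 0.0834) in the first set and 2.39 (SE 0.0506) in the second, and the MYC libraries were the high ones in each.

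Lrrc16b, of the actin-capping regulators, was at 6.11, 5.91 and 6.03 in myc-/- siCtrl and at 9.09, 8.94 and 8.88 in myc-/- + MYC. Its levels in the set of 12 were 7.47, 7.46 and 7.41 in myc-/- and 9.01, 9.20 and 9.11 in myc-/- + MYC siCtrl. The gap was wider in the set of 6, with a log2FC of 2.96 (SE 0.0761) against 1.66 (SE 0.0647). A1cf, the partner of APOBEC1, went the other way in size. It read 4.81, 4.80 and 4.80 without MYC and 5.68, 5.49 and 5.69 with MYC in the set of 6. The set of 12 gave 7.31, 7.28 and 7.29 without and 9.20, 9.33 and 9.03 with MYC, so that the log2FC was 0.81 (SE 0.0551) in the first set and 1.89 (SE 0.0833) in the second. The level in myc-/- siCtrl was low, with an SD of only 0.0022 over the 3 libraries, so the A1cf log2FC in that set, and its difference from the other set, are differences of deposited values and may not be exact folds.

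**Figure D1:**
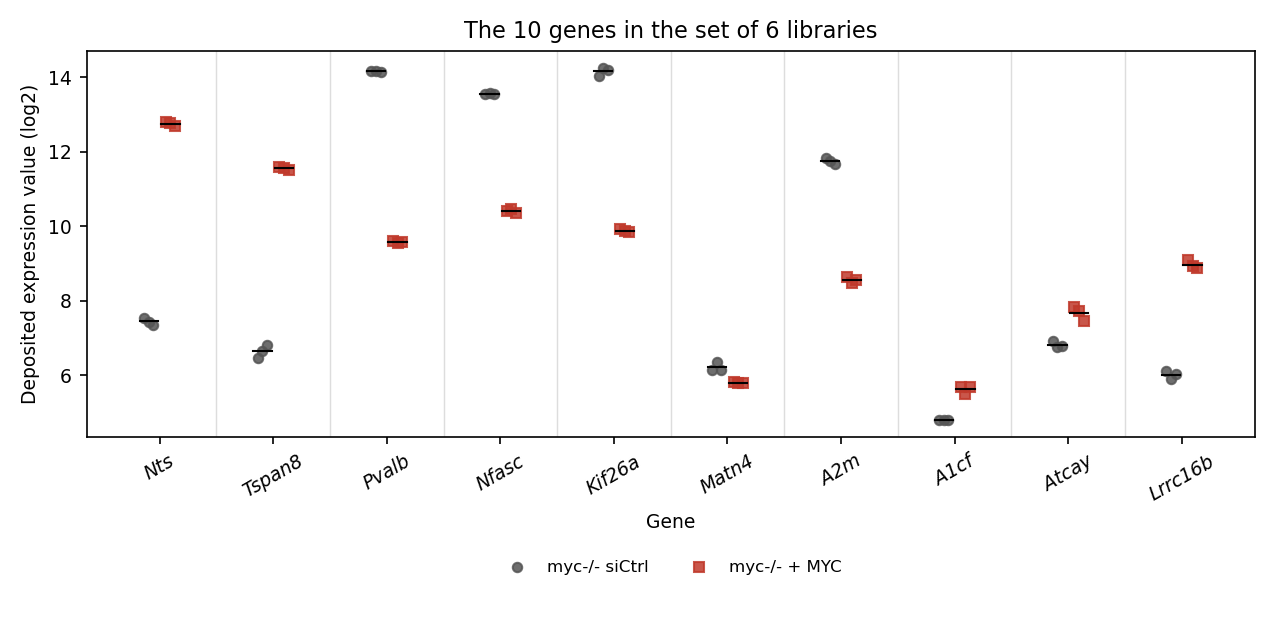
Levels of the 10 genes (x axis) in the set of 6 libraries (y axis, deposited log2 value); each point is 1 library and each bar the mean of a group of 3. Points of the 2 groups lie closest for Matn4 (5.79 to 5.81 with MYC, 6.14 to 6.35 without), and the genes were chosen on these same values.

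Kif26a, A2m and Matn4 were lower with MYC in both sets. Kif26a, the atypical kinesin, was at 14.04, 14.25 and 14.21 in myc-/- siCtrl and at 9.92, 9.88 and 9.85 in myc-/- + MYC. The other set had it at 14.93, 14.70 and 14.89 in myc-/- and at 8.58, 8.66 and 8.65 in myc-/- + MYC siCtrl. All MYC libraries were low, with a log2FC of -4.28 (SE 0.0523) and of -6.21 (SE 0.0678), the deepest fall of any gene in the set of 12. A2m, the secreted protease inhibitor, read 11.83, 11.75 and 11.69 without and 8.63, 8.47 and 8.54 with MYC in the set of 6. It read 12.30, 12.04 and 12.33 without and 7.16, 7.30 and 7.27 with MYC in the set of 12. The log2FC of A2m was -3.21 (SE 0.0590) in the first and -4.98 (SE 0.0947) in the second set.

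Matn4, the matrix adaptor, was low throughout the set of 6, at 6.14, 6.35 and 6.15 without MYC and 5.81, 5.79 and 5.79 with it. Its levels in the set of 12 were 11.12, 11.39 and 11.23 in myc-/- and 6.93, 6.84 and 6.79 in myc-/- + MYC siCtrl. Within the set of 12 the 3 myc-/- libraries were the high ones, and the Matn4 log2FC was -0.42 (SE 0.0614) in the set of 6 and -4.39 (SE 0.0840) in the set of 12. Because the levels in the set of 6 were low, the Matn4 log2FC there, and its difference from the other set, may not be exact folds. Matn4 lies over part of Rbpjl in RefSeq, and the library kit named in the labels does not mark strand, so reads from the shared stretch cannot be assigned with certainty. Tspan8, Atcay and Lrrc16b overlap non-coding genes or a pseudogene that have no row in the table.

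Pvalb, Nfasc and Atcay behaved differently in the 2 sets. Pvalb stood at 14.16, 14.17 and 14.16 in myc-/- siCtrl and at 9.60, 9.55 and 9.58 in myc-/- + MYC, a log2FC of -4.59 (SE 0.0342). Within the set of 12 it was at 5.63, 5.72 and 5.68 in myc-/- and at 5.39, 5.38 and 5.39 in myc-/- + MYC siCtrl, a log2FC of -0.29 (SE 0.0319). The parvalbumin gene was thus high in myc-/- siCtrl within its set, and in the 9 MYC libraries of the set of 12 it varied by no more than 5.38 to 5.40. Because these levels were low, the Pvalb log2FC in the set of 12 may not be an exact fold. The same holds for its difference from the other set. Nfasc read 13.54, 13.59 and 13.56 without and 10.41, 10.48 and 10.36 with MYC in the set of 6, and its log2FC was -3.15 (SE 0.0389). Within the set of 12 it read 7.77, 7.81 and 7.77 without and 8.81, 8.79 and 8.79 with MYC, a log2FC of 1.01 (SE 0.0440) in the opposite direction. Neurofascin was lower in every MYC library of one set and higher in every MYC library of the other.

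Atcay also turned. It was at 6.92, 6.76 and 6.77 in myc-/- siCtrl and at 7.82, 7.74 and 7.46 in myc-/- + MYC, a log2FC of 0.86 (SE 0.0905). It was at 8.5, 8.72 and 8.57 in myc-/- and at 7.91, 8.01 and 8.08 in myc-/- + MYC siCtrl, a log2FC of -0.60 (SE 0.0809). The fall in the set of 12 lay close to the fold cutoff and was below it, at -0.50, after quantile normalization and, at -0.54, without myc-/- replicate 2. Across the 10 genes, the MYC effect in the set of 12 minus that in the set of 6 was 4.29 for Pvalb, 4.16 for Nfasc and 1.08 for A1cf. It was -3.98 for Matn4, -2.54 for Tspan8, -1.93 for Kif26a and -1.77 for A2m. The remaining differences were -1.46 for Atcay, -1.30 for Lrrc16b and -1.24 for Nts. Over the alternative settings the difference ran from -1.87 to -1.05 for A2m and from -1.90 to -1.16 for Nts. These differences are a description, as both sets were used to choose the members.

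The 2 groups without MYC were also described by a gene's place among all genes of its own library. That rank is not scaled for transcript length. It comes from the same values that chose the members, so it is no separate evidence. Pvalb was at the percentile 91.5 in myc-/- siCtrl and between percentiles 21.1 and 21.4 in myc-/-. Nfasc was at percentiles 85.9 to 86.3 in myc-/- siCtrl and 29.1 to 29.3 in myc-/-. Matn4 had the reverse order, at 23.0 to 23.9 in myc-/- siCtrl and 44.5 to 47.2 in myc-/-. Kif26a held a high place in both, at 90.6 to 92.1 and 90.0 to 91.4, and A2m at 59.2 to 61.3 and 54.6 to 58.2. These ranks are set side by side without a test, because the sets were scaled apart and the 2 control groups differ in transfection.

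**Figure D2:**
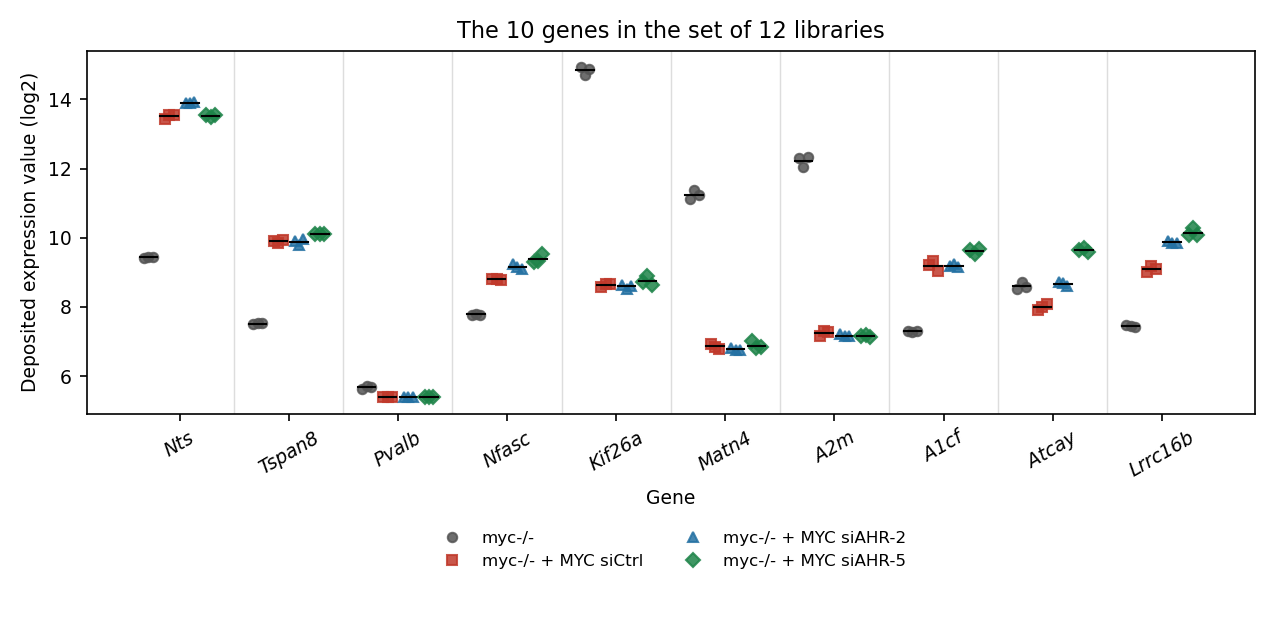
Levels of the 10 genes (x axis) in the set of 12 libraries (y axis, deposited log2 value); each point is 1 library and each bar the mean of a group of 3. Among the 9 libraries with MYC, Atcay spans 7.91 to 9.69 and Pvalb 5.38 to 5.40.

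The next question was what lowering Ahr did in cells with MYC. Both siRNA comparisons use the same siCtrl libraries, so their values are given side by side and are not independent. With siAHR-2, 2 of the 10 genes passed the cutoffs, both higher, against 0.47% of all genes (0.159% higher, 0.311% lower). With siAHR-5, 3 passed, all higher, against 2.32% of all genes (1.47% higher, 0.849% lower). When the fit held a block on the replicate number, no member passed with siAHR-2 and 2 passed with siAHR-5. The siRNA comparisons also chose the members, and nothing is read from the counts. No member was lower past the cutoffs with either siRNA.

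Atcay was the gene with the largest rise of all 13188 under siAHR-5. It read 7.91, 8.01 and 8.08 with siCtrl, 8.72, 8.68 and 8.61 with siAHR-2 and 9.64, 9.69 and 9.58 with siAHR-5. The 3 groups did not overlap and were ordered siCtrl, siAHR-2, siAHR-5, with a log2FC of 0.67 (SE 0.0611) for siAHR-2 and 1.64 (SE 0.0619) for siAHR-5. With siAHR-2 the level of Atcay reached that of the myc-/- libraries, 8.5 to 8.72, and with siAHR-5 it lay above it. Lrrc16b read 9.01, 9.20 and 9.11 with siCtrl, 9.90, 9.86 and 9.84 with siAHR-2 and 10.08, 10.27 and 10.06 with siAHR-5. It had the same order without overlap, with a log2FC of 0.76 (SE 0.0577) and 1.04 (SE 0.0808). Lrrc16b thus rose both with MYC and with each siRNA, while Atcay in the same set was lower with MYC and higher with each siRNA.

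Nfasc read 8.81, 8.79 and 8.79 with siCtrl, 9.23, 9.15 and 9.10 with siAHR-2 and 9.31, 9.34 and 9.53 with siAHR-5. Its log2FC was 0.36 (SE 0.0462) with siAHR-2 and 0.60 (SE 0.0684) with siAHR-5. The second value lay just past the fold cutoff, and it was 0.43 after quantile normalization, 0.54 after centring on medians and 0.53 without siAHR-5 replicate 3. Nts read 13.89, 13.90 and 13.93 with siAHR-2, all above the siCtrl libraries, and 13.56, 13.50 and 13.54 with siAHR-5, which overlapped them. Its log2FC was 0.40 (SE 0.0356) and 0.03 (SE 0.0376). A1cf did the opposite, at 9.18, 9.24 and 9.17 with siAHR-2 within the siCtrl range and at 9.64, 9.53 and 9.69 with siAHR-5 above it. The A1cf log2FC was 0.01 (SE 0.0821) and 0.43 (SE 0.0894).

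Tspan8 was at 9.90, 9.79 and 9.97 with siAHR-2 and at 10.11 in each siAHR-5 library, with a log2FC of -0.01 (SE 0.0577) and 0.21 (SE 0.0383); the siAHR-5 libraries lay above those with siCtrl. Kif26a, Matn4 and A2m, which were lower with MYC in both sets, stayed close to their siCtrl levels. Kif26a ranged from 8.53 to 8.88 over the 9 MYC libraries, Matn4 from 6.75 to 7.02 and A2m from 7.14 to 7.30. Both siRNA groups overlapped siCtrl for Kif26a, Matn4, A2m and Pvalb. Their log2FC ran from -0.08 for Matn4 and A2m with siAHR-2 to 0.11 for Kif26a with siAHR-5.

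Set directly against each other, the siRNAs differed for some members. The libraries are those that chose the members, so these values are again a description. Atcay was higher with siAHR-5 than with siAHR-2, by 0.97 (SE 0.0509) on the log2 scale. Ahr itself, which is no member, had a log2FC of -0.11 (SE 0.0570, limma adjusted p = 0.211) between the siRNAs, and of its targets Ahrr (-0.40, SE 0.0444, limma adjusted p = 0.00157) and Nqo1 (-0.25, SE 0.0150, limma adjusted p = 0.000247) were lower with siAHR-5, short of the fold cutoff. The other classic targets stood at 0.02 for Cyp1b1 (SE 0.0494, limma adjusted p = 0.793), -0.01 for Cyp1a1 (SE 0.0230, limma adjusted p = 0.766) and -0.20 for Aldh3a1 (SE 0.0772, limma adjusted p = 0.100). A1cf was higher with siAHR-5 by 0.42 (SE 0.0546), Lrrc16b by 0.27 (SE 0.0663), Nfasc by 0.24 (SE 0.0753) and Tspan8 by 0.22 (SE 0.0524). Nts was lower with siAHR-5, at a log2FC of -0.38 (SE 0.0209), the only one of the 10 with a clearly negative value. Kif26a had a log2FC of 0.15 (SE 0.0731) and Matn4 of 0.11 (SE 0.0657). Pvalb and A2m stood at 0.00 (SE 0.0181 and 0.0366).

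**Figure D3:**
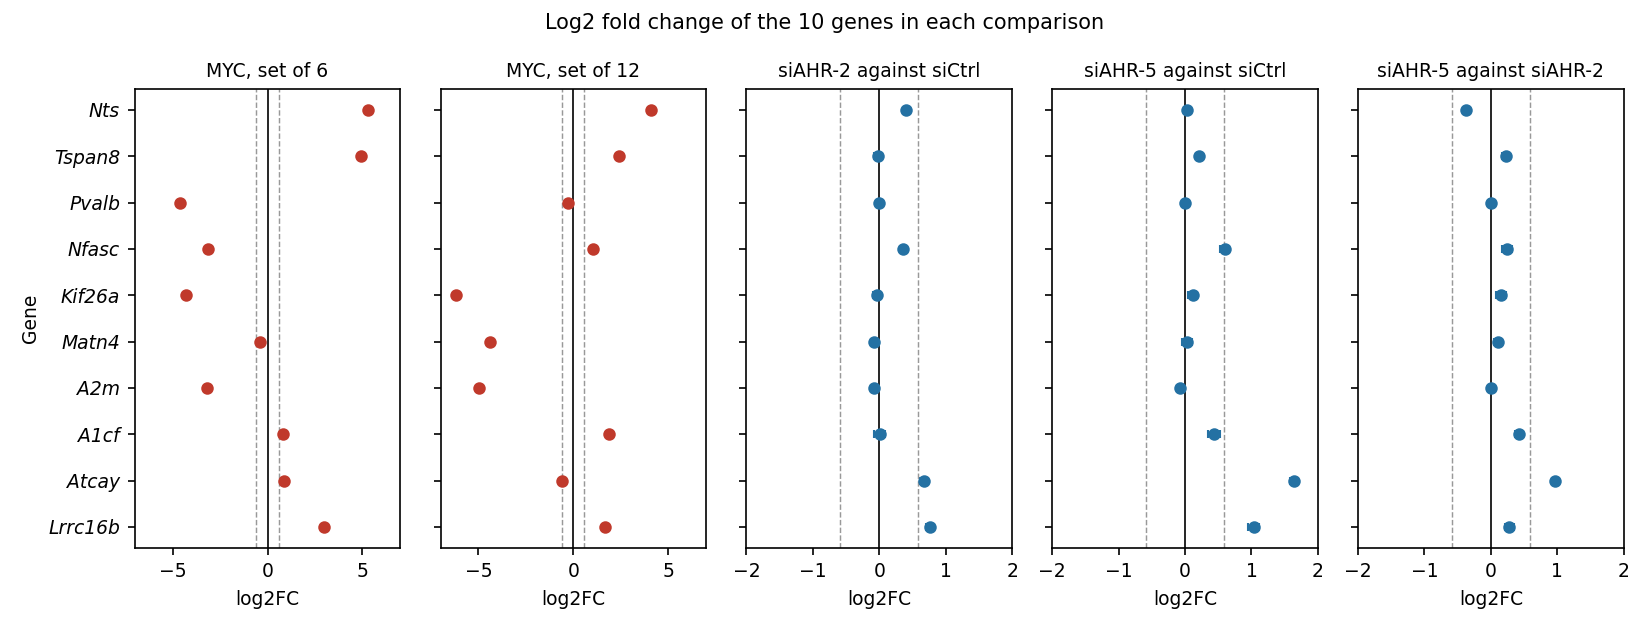
Log2FC (x axis; point, with the SE as a bar where it is wider than the point) of the 10 genes (y axis) in 5 comparisons; dashed lines are the 1.5-fold cutoff in either direction. The MYC panels reach from -6.21 (Kif26a) to 5.32 (Nts), the siRNA panels from -0.38 (Nts) to 1.64 (Atcay), and the panels of the 2 kinds have different x scales.

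To place the members among genes of like function, 100 relatives from 10 lists (families and partners of each member) were examined. Of these 100, 40 passed the cutoffs in the set of 6, 14 higher and 26 lower, beside 26.8% of all genes, and their median log2FC was -0.21 against -0.0038 over all genes. After quantile normalization 35 passed there, 15 of them higher. Among the set of 12, 30 passed, 11 higher and 19 lower, beside 25.5% of all genes, with a median of -0.05 against -0.00014. With siAHR-2 none passed in limma, beside 0.47% of all genes, and with siAHR-5 4 passed, all higher, beside 2.32%. For siAHR-2, 40 of the 100 had an unadjusted p under 0.05. At a limma adjusted p of at most 0.05 without a fold cutoff 35 passed there, beside 3860 of all 13188 genes. Between the siRNAs 2 passed, both higher with siAHR-5, beside 2.18% of all genes (1.33% higher, 0.849% lower). The MYC effect differed between the sets for 30 relatives, beside 16.5% of all genes. No test compared the relatives with other genes.

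Of 4 measured receptors and processing enzymes for the Nts peptides 1 rose and 1 fell in each set. Sort1, encoding sortilin, a sorting receptor that binds neurotensin, rose by a log2FC of 2.44 (SE 0.0354, limma adjusted p = 4.98e-13) in the set of 6 and 3.16 (SE 0.0730, adjusted p = 7.71e-07) in the set of 12. Pam, the enzyme that amidates peptide hormones, fell, with a log2FC of -0.66 (SE 0.0294) and -0.94 (SE 0.0322); the first was -0.48 after quantile normalization, short of the fold cutoff. Of the 23 tetraspanins related to Tspan8, 1 rose and 10 fell in the set of 6, and 1 rose and 8 fell in the set of 12; after quantile normalization 8 fell in the set of 6. The one that rose was Tspan15 in both sets, with a log2FC of 2.34 (SE 0.0907) and 2.09 (SE 0.0562). Cd37, a leukocyte tetraspanin, fell, with a log2FC of -2.35 (SE 0.0575) and -2.83 (SE 0.0640). Tspan4, a tetraspanin of migrating cells, also fell (-1.08, SE 0.0521, and -1.92, SE 0.0570).

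Tetraspanins were also 3 of the 4 relatives that rose with siAHR-5: Tspan15 by 0.78 (SE 0.0520, limma adjusted p = 0.000477), Cd82 by 0.71 (SE 0.0397, adjusted p = 0.000342) and Tspan17 by 0.66 (SE 0.0453, adjusted p = 0.000500). The other was Col6a2, a collagen VI chain, at 0.64 (SE 0.0325, limma adjusted p = 0.000292), which was 0.58 and just short of the fold cutoff after centring on medians. Cd82, Tspan17 and Col6a2 had each fallen with MYC in the set of 12 (log2FC -1.87, -0.87 and -3.28), and Tspan15 had risen. Between the siRNAs, Tspan4 was higher with siAHR-5 by 0.70 (SE 0.0955, limma adjusted p = 0.00313), a call lost without siAHR-5 replicate 3 or without any of the siAHR-2 libraries. Vwa1, a matrix protein with a von Willebrand A domain, was higher by 0.67 (SE 0.0704, limma adjusted p = 0.00128).

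Calcium-binding relatives of Pvalb moved in both directions. Of 14 EF-hand buffers and S100 proteins, 3 rose and 2 fell in either set. Ocm2, an oncomodulin and so the gene closest to parvalbumin on the list, fell by 3.70 (SE 0.0690) in the set of 6 and by 1.24 (SE 0.0772) in the set of 12. It stood at 12.65 ± 0.0224 (SD, n = 3) in myc-/- siCtrl and at 9.81 ± 0.127 in myc-/-, each above the MYC libraries of its own set. Like Pvalb it fell further in the set of 6, and the difference of 2.46 (SE 0.111, limma adjusted p = 1.19e-10) was tested. Calb2 (calretinin) fell by 1.37 (SE 0.0710) in the set of 6 and had a log2FC of 0.27 (SE 0.0503) in the set of 12, and S100a16 fell by 1.81 (SE 0.0740) in the set of 12. S100a13 rose by a log2FC of 1.86 (SE 0.0522) and 1.28 (SE 0.0667).

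The list for Nfasc held 7 genes, for adhesion proteins of the L1 family and of paranodes and for cytoskeletal proteins listed with them. Of these, 4 rose and 2 fell in the set of 6. In the set of 12, 3 rose and none fell, and 4 had an unadjusted p under 0.05. Cntn1 (contactin, a partner of neurofascin at axons) rose by a log2FC of 4.01 (SE 0.0613) and 3.61 (SE 0.0622), and Ank3 (ankyrin-G, its cytoskeletal anchor) by 1.67 (SE 0.0422) and 2.38 (SE 0.0739). Nrcam, of the same family as Nfasc, rose by 1.22 (SE 0.0564) and 0.64 (SE 0.0541). The genes that fell in the set of 6 were Sptbn4, a spectrin of axon initial segments, by 0.73 (SE 0.0642), and L1cam, of the same family as Nfasc, by 0.67 (SE 0.0597). L1cam had a log2FC of 0.09 (SE 0.0821) in the set of 12, and its MYC effect was higher there by 0.76 (SE 0.100, limma adjusted p = 1.35e-05). Of 28 kinesins, 2 rose and 5 fell in the set of 6 and 2 rose and 3 fell in the set of 12. After quantile normalization 3 rose and 2 fell in the set of 6, the calls of Kif11 (-0.54), Kif22 (-0.47) and Kif3b (-0.56) being lost. Kif26b, the closest relative of Kif26a, fell, with a log2FC of -1.09 (SE 0.0627) and -1.19 (SE 0.0566). Kif5c, a neuronal kinesin, fell as well (-0.91, SE 0.0472, and -1.67, SE 0.134). Kifc2 had the largest change among these 28 in the set of 6, a rise of 1.57 (SE 0.0801), and stood at 0.35 (SE 0.0828) in the set of 12.

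The matrix and protease inhibitor lists were small. Of 4 VWA-domain matrix genes, 1 rose and 2 fell in each set. Vwf (von Willebrand factor) had a log2FC of -1.89 (SE 0.0725) and -3.06 (SE 0.0993), and Col6a2 of -1.40 (SE 0.0326) and -3.28 (SE 0.0243). Vwa1 was the gene that rose, with 0.91 (SE 0.0859) and 1.58 (SE 0.0399). Of 5 genes of the alpha-2-macroglobulin family and its receptor, 3 fell in the set of 6 and 2 in the larger set. C3, the central complement component, fell, with a log2FC of -2.97 (SE 0.0442) and -2.77 (SE 0.0632). C4b, another complement component, fell by 3.49 (SE 0.0658) in the set of 6. Its level was already low in myc-/-, at 5.21 ± 0.0600 (SD, n = 3), and its log2FC of -0.21 (SE 0.0347) in the set of 12 missed the fold cutoff. Lrp1, the receptor that clears A2m, fell by 1.26 (SE 0.155) in the set of 12 and had a log2FC of -0.28 (SE 0.0348) in the set of 6.

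The lists for A1cf, Atcay and Lrrc16b were short, and their counts were not tested against other genes. Of all genes, 26.8% (set of 6) and 25.5% (set of 12) passed. Apobec1, the editing enzyme that A1cf assists, rose by a log2FC of 0.88 (SE 0.0663) in the set of 6, and it was low in the set of 12, from 4.94 ± 0.0296 in myc-/- to 5.03 ± 0.0469 in myc-/- + MYC siCtrl (SD, n = 3), where its log2FC was 0.09 (SE 0.0323). It was the only one of 6 editing-related genes past the cutoffs in the set of 6, and none passed in the set of 12, with 3 at an unadjusted p under 0.05. Of 4 other BCH-domain genes none passed in the set of 6, all 4 having an unadjusted p under 0.05, and 1 fell in the set of 12. Of 5 genes of the CARMIL family and capping proteins, Lrrc16a (Carmil1) rose by 0.86 (SE 0.0317) and Capg, an actin-capping protein, fell by 1.23 (SE 0.0464) in the set of 6. None of the 5 passed in the set of 12, with 4 at an unadjusted p under 0.05.

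**Figure D4:**
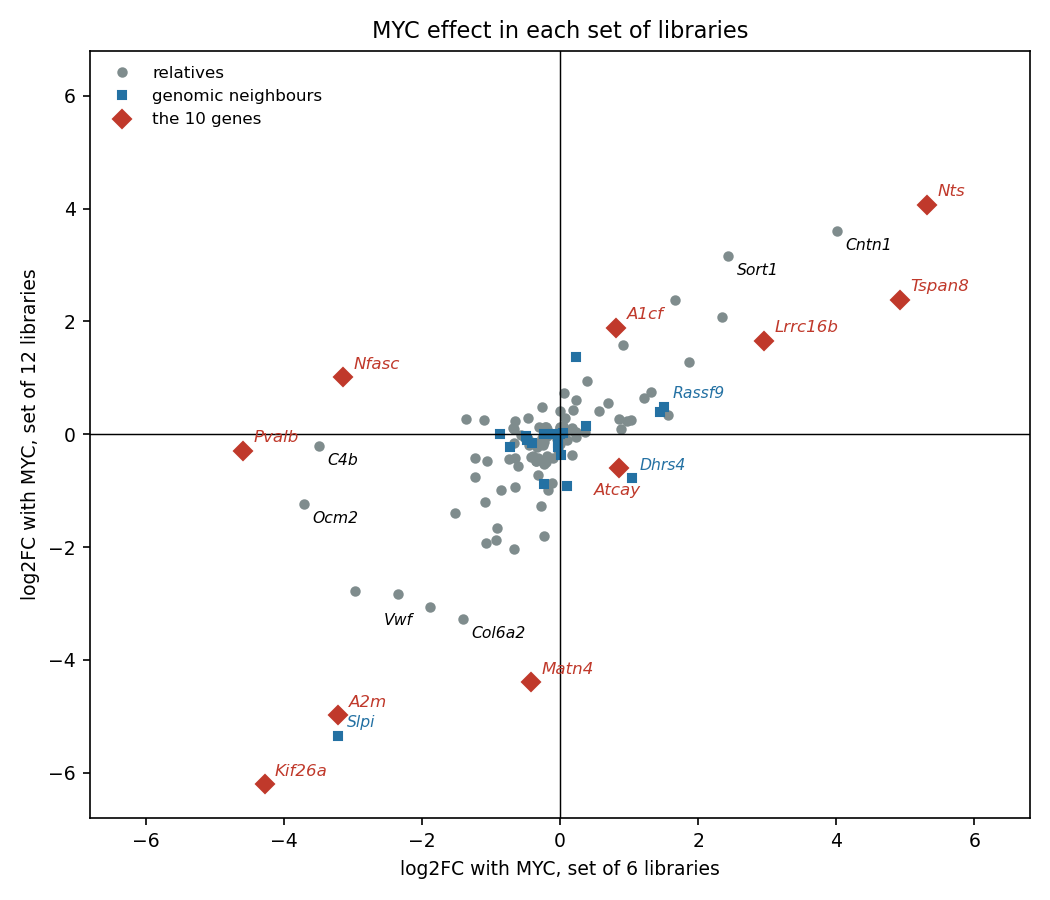
Log2FC with MYC in the set of 6 (x axis) and the set of 12 (y axis) for the 10 genes (diamonds), their 100 relatives (circles) and 20 neighbours on the chromosome (squares). Nfasc lies in the upper left, Atcay and Dhrs4 in the lower right, and Pvalb and Matn4 near the axes.

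The nearest measured gene on each side of every member, in the order of the RefSeq annotation, gave 20 neighbours. They lay from 0 kb (Rbpjl) to 780 kb (Cstf2t, near A1cf) away. Up to 9 RefSeq genes without a measured value lay between, so a neighbour need not be the adjacent gene. Of these, 6 passed the cutoffs in the set of 6 (3 higher, 3 lower) and 5 in the other set (1 higher, 4 lower), shares close to the 26.8% and 25.5% of all genes. None passed with either siRNA or between the siRNAs in limma, where 2, 10 and 6 had an unadjusted p under 0.05. At a limma adjusted p of at most 0.05 without a fold cutoff, 1, 5 and 4 passed, beside 3860, 5169 and 5151 of all 13188 genes. The MYC effect differed between the sets for 8 of the 20 neighbours, beside 16.5% of all genes. It was higher in the set of 12 for 2 of them and lower for 6, and no test compared the neighbours with other genes. Slpi, a secreted inhibitor of leukocyte proteases that neighbours Matn4, fell by 3.21 (SE 0.0400, limma adjusted p = 1.84e-13) in the set of 6 and by 5.34 (SE 0.0738, adjusted p = 1.74e-07) in the set of 12. Both Matn4 and Slpi were thus far lower with MYC in the set of 12, and Slpi alone passed in the other set. Rbpjl, on the other side of Matn4 and overlapping it, fell by 0.87 (SE 0.0752) in the set of 12, and its log2FC in the set of 6 was -0.23 (SE 0.0719).

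Rassf9, next to Nts, rose by a log2FC of 1.5 (SE 0.0403, limma adjusted p = 4.63e-11) in the set of 6, and it was 0.49 (SE 0.0495) in the set of 12. Near Lrrc16b, Pck2, the mitochondrial form of phosphoenolpyruvate carboxykinase, rose by 1.45 (SE 0.0629) in the set of 6 and stood at 0.39 (SE 0.0898) in the set of 12. Dhrs4, a short-chain dehydrogenase on the other side, rose by a log2FC of 1.03 (SE 0.0450) in the set of 6 and fell by 0.78 (SE 0.0623) in the set of 12. Ift27, next to Pvalb, fell by 0.73 (SE 0.0511) in the set of 6. Tst, 160 kb away on the other side of Pvalb, rose by 1.37 (SE 0.0435) in the set of 12. Iqsec3, 191 kb from A2m, fell by 0.87 (SE 0.0634) in the set of 6. Dapk3, next to Atcay, fell by 0.91 (SE 0.0981) in the set of 12. Neighbours of Tspan8, Nfasc, Kif26a and A1cf passed in neither set.

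The genes most like each member were sought by the root mean square (RMS) difference of log2FC over the 4 comparisons that chose the members. The closest match of all was Cdh8, a cadherin, for A2m, at an RMS difference of 0.0736, followed by Ndrg2 for A1cf at 0.115 and Cryab, a small heat shock protein, for A2m at 0.119. Tspan8 was nearest to Smpdl3a (0.141), Pvalb to Pde9a, a cyclic GMP phosphodiesterase (0.186), and Kif26a to Angptl2, a secreted angiopoietin-like protein (0.188). For Nts the nearest was the homeobox gene Meox2 (0.275), for Matn4 the ephrin receptor gene Epha3 (0.324) and for Lrrc16b Kazald1 (0.347). Atcay and Nfasc had the least similar nearest genes, Gli1, a Hedgehog pathway transcription factor (0.386), and Adgrb2, an adhesion receptor gene (0.486). No member was among the 2 nearest genes of another member.

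Whether the libraries held cells of the tissues these genes are known from was examined with 8 marker lists. The fibroblast list was high, with all 12 genes in the table and a summed level from 19.9 to 22.2 over the libraries; Vim ran from 18.3 to 19.7, though Col1a2 (3.6 to 4.1) and Fap (4.6 to 5.4) were low. It was also lower with MYC: the summed level was 20.8 in myc-/- siCtrl and 19.9 to 20.0 in myc-/- + MYC, and 22.0 to 22.2 in myc-/- against 20.2 to 20.3 in myc-/- + MYC siCtrl. Of its 12 genes 1 rose and 5 fell in the set of 6, and 7 fell in the set of 12. Over all genes 14.3% and 14.7% were lower. After quantile normalization or centring on medians 6 fell in the set of 12, the call of Pdgfra (log2FC -0.61) being lost. Col1a1 made up 45.8% to 49.3% of the unlogged sum in myc-/-. The other lists were mixed. Low markers were Rbfox3 of neurons (2.3 to 2.8), Epcam of epithelium (1.2 to 2.4), Hnf4a of hepatocytes (1.9 to 2.4), Sox9 of cartilage (0.0 to 0.2) and Sox10 of glia (0.6 to 0.8). Ptprc of the immune list was low as well (2.84 to 4.65). Markers with higher levels in the same lists were Elavl4 (10.2 to 13.5) and Map2 (10.3 to 11.3) of neurons. Grhl2 of epithelium (12.3 to 13.9), Tf of hepatocytes (7.97 to 9.13) and Hapln1 of cartilage (7.27 to 10.02) were others. Mog of glia (9.48 to 10.98) and Cd14 of the immune list (9.91 to 11.4) were higher too. Map2, Tf, Hapln1 and Mog nevertheless lay below the median gene of each library. Grhl2 lay above that median throughout, Elavl4 only without MYC and Cd14 only in myc-/- siCtrl.

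Single genes of those lists passed the cutoffs. Of 12 neuron markers in the table (17 listed), 1 rose and 1 fell in the set of 6, and 1 rose and 2 fell in the larger set. Slc17a7, a vesicular glutamate transporter, rose by 2.44 (SE 0.0718) and 1.13 (SE 0.0725), and with siAHR-5 by 0.82 (SE 0.0936), a call lost without siAHR-5 replicate 1 (limma adjusted p = 0.0109). Elavl4, a neuronal RNA-binding protein, fell, with a log2FC of -2.13 (SE 0.0385) and -3.16 (SE 0.0489). For this list the summed level was 13.1 to 13.2 without and 11.7 with MYC in the set of 6, and 13.6 to 13.8 without and 11.88 to 12.02 with MYC in the set of 12. Elavl4 alone made up 77.3% to 77.5% of the unlogged sum in myc-/- siCtrl and 80.7% to 86.9% in myc-/-, and the median log2FC of the list was -0.02 and -0.01. Dcx (doublecortin) was the other neuron marker that fell in the set of 12, with a log2FC of -0.94 (SE 0.112, limma adjusted p = 0.000555). Of 8 skeletal muscle markers (11 listed), 2 fell in the set of 6 (3 after quantile normalization or centring on medians) and 4 in the larger set. Myh1, a fast myosin heavy chain, fell by 2.84 (SE 0.0610) in the set of 6, beside Pvalb, and by 0.86 (SE 0.137) in the set of 12, a call lost without myc-/- + MYC siCtrl replicate 2 (limma adjusted p = 0.0113). The muscle sum was 11.3 in myc-/- siCtrl against 9.55 to 9.56 in myc-/- + MYC, and 10.3 to 10.4 in myc-/- against 9.11 to 9.24 in myc-/- + MYC siCtrl; Myh1 made up 68.3% to 69.6% of the first.

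Of 10 epithelial markers (13 listed), 3 rose and 2 fell in the set of 6 and 1 rose in the set of 12. Krt8, a simple-epithelium keratin, rose by a log2FC of 1.70 (SE 0.0613) and 1.17 (SE 0.105). Muc1 (0.83) and Grhl2 (0.65) also rose in the set of 6, where Vil1 (villin) fell by 1.56 and Cldn4, a claudin, fell by 0.84; in the set of 12 Vil1 was at -0.32 and Cldn4 at 0.01. The epithelial sum was nearly that of Grhl2 alone, which made up 86.5% to 96.2% of it in the MYC comparisons, and the median log2FC of the list was 0.02 and 0.01. It read 13.1 with MYC against 12.5 to 12.6 in the set of 6 and 13.9 to 14.0 against 13.4 to 13.5 in the set of 12. Of 10 hepatocyte markers (12 listed), 1 fell in each set, Fgg (a fibrinogen chain) in the set of 6 and Tf (transferrin) in the larger set. After centring on medians 3 fell in the set of 6, and after quantile normalization none fell in the set of 12. Tf made up 55.2% to 80.2% of their sum, which was 8.83 to 8.93 with MYC against 9.39 to 9.46, and 8.78 to 8.81 against 9.26 to 9.45. Of 8 cartilage markers (9 listed), 2 rose in the set of 6 and 1 rose in the larger set, where 3 rose under either other scaling. The cartilage sum was 10.29 to 10.33 with MYC against 8.85 to 8.98, and 9.28 to 9.45 against 8.68 to 8.76. Hapln1 made up 59.0% to 80.8% of it in the set of 6, and the list's median log2FC was 0.03 there and 0.08 in the other set. Of 5 myelinating glia markers (7 listed), 1 rose and 1 fell in the set of 6, Mbp falling by 2.78 (SE 0.0608), and none passed in the set of 12, with 3 at an unadjusted p under 0.05. The gene that rose was Mog (0.63), a call lost after quantile normalization (0.58), after centring on medians (0.58) and without myc-/- + MYC replicate 2 (0.57); after quantile normalization 1 marker rose in the set of 12. The glial sum, of which Mog made up 83.1% to 88.4% outside myc-/- siCtrl, was 10.29 to 10.48 with MYC against 10.60 to 10.64, and 10.91 to 11.02 against 10.67 to 10.84. Of 5 immune markers (6 listed), 1 fell in each set, with a sum of 10.6 to 10.7 against 11.4 to 11.6, and 10.2 to 10.5 against 10.910 to 11.002. Cd14 made up 79.8% to 90.3% of that sum in the MYC comparisons. The part of any such cells in the members' levels was not tested.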

How the data were processed

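Poly-A RNA of HO15.19 rat fibroblasts was sequenced in 18 libraries. Per the labels and the study's methods, the authors aligned the reads to rn6 with HISAT2 2.1.0, normalized them with DESeq2 and deposited log2 expression values for 13188 genes in one table, without pooling replicates; the counter, the annotation and the transformation are not given in the sources used here. Depth and the precision it gives are therefore unknown, and the spread between 3 libraries is the error used. Value columns without a sample numbered 0.

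Differences were fitted with limma 3.58.1 in R 4.3.3 (lmFit, eBayes with a mean-variance trend), only the compared groups entering each fit, and p-values were adjusted by Benjamini-Hochberg over all 13188 genes. No filter or pseudocount was applied. A gene was called at a change of at least 1.5-fold and an adjusted p of at most 0.01. The difference of the MYC effects was an interaction contrast over the means of 4 groups. The scripts were tested on simulated data.

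The members and all lists were chosen with earlier results of these data known. The genes considered for naming were the members, their relatives, the markers, Ahr with its targets and Myc. To these came the nearest measured gene on each side and the 2 genes nearest in pattern. Relatives and markers past the cutoffs were named in part and not strictly by size of change. Cd151 (log2FC -1.52) and Cntnap1 (1.03), for instance, passed in the set of 6 and are not described above. Of the symbols, 12169 matched RefSeq (GRCr8) directly and 795 through 1 synonym; 9 members matched directly and Lrrc16b as Carmil3. RefSeq served for names, order, overlaps and promoter windows only. The alternatives tried were no trend, quantile normalization, centring on medians, a minimum mean of 1, a pseudocount of 1, an adjusted p of at most 0.05 without a fold cutoff, all libraries of the set of 12 in one fit, leave-one-out fits and a block on the replicate number.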

Additional observations from a re-analysis of the deposited data

Results flagged for a closer look

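Nfasc was singled out because every MYC library lay below the controls in the set of 6 and above them in the set of 12; its MYC effect was 4.16 higher (log2) in the set of 12. Atcay did the reverse, its effect in the set of 12 minus that in the set of 6 being -1.46. No test of these differences is given, since both sets were used to choose the members.

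Dhrs4, the neighbour of Lrrc16b, also turned, with a difference of -1.81 (SE 0.0785, limma adjusted p of the interaction = 7.73e-11). The transfection differed between the groups in opposite senses in the 2 sets, and its part in any of these differences was not tested.

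Atcay stood 0.97 (log2, SE 0.0509) higher with siAHR-5 than with siAHR-2, while Ahr was at 11.76 to 11.95 and 11.97 to 12.03. No test is given here either, because these libraries were used to choose Atcay.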

How the results depend on the processing

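Among the 880 values of the members recomputed in the alternatives, 0 of those past the cutoffs changed sign. Some alternatives, such as no trend, the minimum mean and the replicate block, leave a log2FC as it was. The others reuse the libraries that chose the members, so the count serves as no test. Atcay fell below 1.5-fold for MYC in the set of 12 after quantile normalization (-0.50), after centring on medians (-0.56), without myc-/- + MYC siCtrl replicate 1 (-0.55) and without myc-/- replicate 2 (-0.54). Nfasc did so with siAHR-5 after quantile normalization (0.43), after centring (0.54) and without siAHR-5 replicate 3 (0.53). At an adjusted p of at most 0.05 with no fold cutoff, the genes called numbered 10051 and 8538 for MYC in the sets of 6 and 12, 3860 with siAHR-2, 5169 with siAHR-5, 5151 between the siRNAs and 7235 for the interaction. In the same order the relatives numbered 86, 71, 35, 39, 39 and 70, and the neighbours 13, 12, 1, 5, 4 and 15. Leaving out 1 library gave 1 to 2 relatives between the siRNAs, the call of Tspan4 being the one lost.

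Same-numbered libraries did not deviate together (correlations from -0.256 to 0.242 over 15 same-numbered pairs), so the numbers were not taken as pairs. With the replicate block 0 genes passed with siAHR-2 (smallest limma adjusted p 0.0126, 5030 genes at an unadjusted p under 0.05). Ahr itself, Atcay and Lrrc16b therefore did not pass there either. For siAHR-5 270 genes and 2 members passed with the block. The block left 40, 30, 0, 4 and 2 relatives. It also ended the calls of Slc17a7 with siAHR-5 (limma adjusted p = 0.0144), Myh1 for MYC in the larger set (limma adjusted p = 0.0119) and Cd14 between the siRNAs (limma adjusted p = 0.0143). The split of called genes depended on the scaling: for MYC, 1653 higher and 1884 lower in the set of 6 became 1799 and 1684 after quantile normalization, and 1425 and 1936 in the set of 12 became 1796 and 1660. With siAHR-2 21 higher and 41 lower became 15 and 53 after centring, and with siAHR-5 194 and 112 became 127 and 126 after quantile normalization and 140 and 165 after centring. The cause was not tested in any of these cases. Unknown depth limits what can be said of members with low values, such as Pvalb in the set of 12, Matn4 in the set of 6 and A1cf in myc-/- siCtrl.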
